A study of Rattus norvegicus with 19 samples.

Results

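The 10 genes described here encode the liver's main aminotransferases, its glutamate and glutamine enzymes and 3 enzymes of histidine breakdown. They are Got1, Got2, Gpt, Gpt2, Glud1, Gls2, Glul, Hal, Uroc1 and Ftcd, and they were taken by name, 10 of the 15388 genes that the arrays' probes could be tied to. Every non-control probe that carried one of these names, or that led to one through its accession, was used, which gave 16 probes for the 10 genes among 41012 non-control probes. All 16 were among the 25292 probes kept for testing, since Cy5 (the rat's RNA) was well above background on 19 of 19 arrays for each of them and no spot was saturated.

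Liver RNA came from 19 adult male Wistar rats, each measured on its own 2-colour Agilent array against a common Cy3-labelled pool of liver RNA, with no dye swap. The rats ate 1 of 3 diets for 4 months from the age of 8 weeks. The high protein diet (HP, 6 rats) gave 45% of its energy as protein, mainly casein, 45% as carbohydrate and 10% as fat. The high fat diet (HF, 6 rats) gave 20% as protein, 20% as carbohydrate and 60% as fat. The Control diet (7 rats) gave 20% as protein, 70% as carbohydrate and 10% as fat. All rats were killed in the fed state. HP and Control thus differ in protein and carbohydrate, HF and Control differ in fat and carbohydrate, and HP and HF differ in all 3.

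Aminotransferases move amino groups from amino acids to 2-oxoglutarate, which makes glutamate. Aspartate aminotransferase exists as a cytosolic enzyme (Got1) and a mitochondrial one (Got2), and alanine aminotransferase likewise (Gpt and Gpt2). Glutamate dehydrogenase (Glud1) frees ammonia from glutamate, the liver glutaminase (Gls2) frees it from glutamine, and glutamine synthetase (Glul) fixes ammonia back into glutamine. In the liver lobule Gls2 is found in periportal hepatocytes, beside the urea cycle, while Glul is found in hepatocytes around the central vein, where it depends on Wnt signalling. Histidine breakdown starts with histidine ammonia-lyase (Hal), goes on with urocanase (Uroc1) and ends with formimidoyltransferase cyclodeaminase (Ftcd), which passes a carbon unit to folate and leaves glutamate.

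Promoter sequences are shown for 3 members whose levels differed between diets, since elements known from nutrient control can be looked for there. RefSeq windows of the build GRCr8, from 250 bases before to 50 bases after each start, were found for 8 of the 10 genes (not for Gpt and Hal), as 10 windows in all. The windows of Got1, Gls2 and Glul are printed here from 5′ to 3′ on the gene's strand. Got1 lies on the minus strand at chr1:252329822-252330121. Gls2 is shown at the start chr7:1201629-1201928, and Glul at its 2 annotated starts, chr13:68519250-68519549 and chr13:68575816-68576115, all on the plus strand. Capitals mark the CCAAT box (CCAAT), the core of a cAMP response element (TGACG), an amino acid response element (TGATGCAA) and a TCF site of Wnt signalling (CTTTGAT), each searched on both strands.
Got1: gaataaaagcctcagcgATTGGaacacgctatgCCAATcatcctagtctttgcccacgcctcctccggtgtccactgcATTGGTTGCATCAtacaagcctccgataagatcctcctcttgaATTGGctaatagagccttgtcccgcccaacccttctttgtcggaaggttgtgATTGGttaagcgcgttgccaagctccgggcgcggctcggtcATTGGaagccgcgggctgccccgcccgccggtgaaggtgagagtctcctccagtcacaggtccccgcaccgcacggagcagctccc
Gls2: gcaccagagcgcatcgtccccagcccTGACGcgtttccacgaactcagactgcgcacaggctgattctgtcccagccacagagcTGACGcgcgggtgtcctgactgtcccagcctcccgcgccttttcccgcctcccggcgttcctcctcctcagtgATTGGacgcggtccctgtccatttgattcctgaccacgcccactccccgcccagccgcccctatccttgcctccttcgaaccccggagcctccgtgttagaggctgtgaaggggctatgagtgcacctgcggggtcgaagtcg
Glul, start 1: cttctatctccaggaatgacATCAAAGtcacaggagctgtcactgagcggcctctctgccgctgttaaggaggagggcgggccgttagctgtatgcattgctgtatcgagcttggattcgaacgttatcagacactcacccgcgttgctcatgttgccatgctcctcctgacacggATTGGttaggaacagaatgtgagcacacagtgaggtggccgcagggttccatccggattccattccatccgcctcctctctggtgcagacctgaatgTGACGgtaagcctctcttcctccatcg
Glul, start 2: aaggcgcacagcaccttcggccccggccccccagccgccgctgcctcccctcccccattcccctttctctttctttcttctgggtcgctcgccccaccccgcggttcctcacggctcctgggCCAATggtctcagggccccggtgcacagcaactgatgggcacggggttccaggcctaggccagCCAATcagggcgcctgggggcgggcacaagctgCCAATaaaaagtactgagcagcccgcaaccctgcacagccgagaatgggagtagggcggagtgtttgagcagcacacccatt

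The Got1 window held 6 matches to CCAAT and 1 to TGATGCAA, which begins 167 bases before the start and directly follows one of the CCAAT matches. Of all 33469 rat windows of this length, 37.5% held at least 1 CCAAT and 0.795% at least 1 TGATGCAA. Shares of windows with several matches were not computed. The Gls2 window held 1 CCAAT and 2 TGACG, and 21.2% of all windows held at least 1 TGACG. The Glul window at start 1 held 1 CCAAT, 1 TGACG and 1 CTTTGAT, the last of which 3.63% of all windows held, and the window at start 2 held 3 CCAAT. The other Gls2 window and those of Got2, Gpt2 and Glud1 held no match to any of these 4 motifs, Uroc1 held 1 CCAAT and Ftcd none. Of the other motifs searched, Ftcd held 1 match to AGAACA (part of the glucocorticoid response element, in 20.7% of all windows) and 1 to TATAAA (the TATA box, in 14.2%). A full cAMP response element, TGACGTCA, was in 1.83% of all windows and in none of the 10. A match is a description of the letters and not evidence of a bound factor.

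The data behind the values are as follows. Between arrays, 54.2% to 67.5% of all spots were well above background in Cy5. Values are log2 ratios of a rat's RNA to the pool, so 0 means the level of the pool, and a difference between diets is a log2 difference given with the standard error (SE) of the limma fit. A probe was called where its Benjamini-Hochberg adjusted p over all 25292 kept probes was under 0.05. Control 6 stood apart from the other livers: the median log2 ratio of 8 measured lymphocyte genes was 2.34 there, against -0.88 to -0.51 in the other 18 livers, and it had the lowest value of all 19 livers for 5 of the 16 probes. HF 6 was lowest for 6 of the 16. Hepatocyte markers were measured for 10 of 10 genes, and their median ranged from 0.08 to 0.38 in HP livers, from 0.11 to 0.24 in HF livers and from 0.06 to 0.29 in Control livers. RNA of whole liver was measured, so fewer cells of a type and less RNA per cell cannot be told apart.

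**Figure D1:**
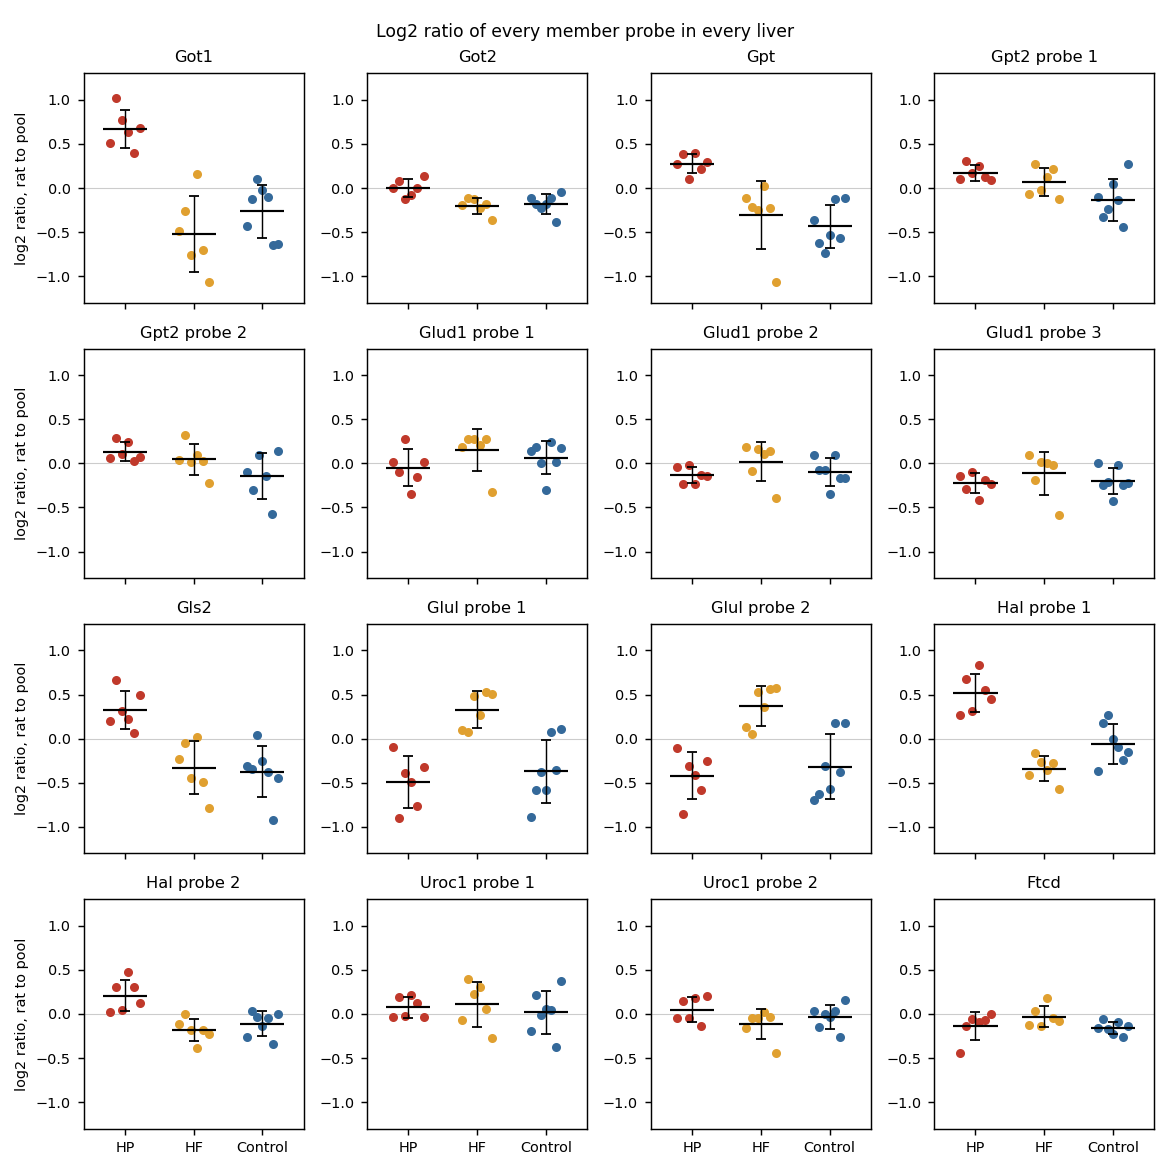
Log2 ratio of each of the 16 probes in every liver (points), with the group mean (horizontal line) and SD (bar), for HP (6), HF (6) and Control (7, or 6 for Gpt2 probe 2). The HP livers of Got1, Gpt, Gls2 and Hal probe 1 lie above all Control livers, and the HF livers of both Glul probes lie above all HP livers.

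HP against Control asked how these genes differed with more protein and less carbohydrate at an equal share of fat. Of 16 probes, 4 were called, and all of these were higher in HP livers: the cytosolic aminotransferases Got1 and Gpt, the glutaminase Gls2 and the histidine ammonia-lyase Hal. Over all kept probes 0.447% were called in this comparison, 0.308% as higher in HP. For each of these 4 probes every HP liver lay above every Control liver, which held for 0.506% of all kept probes. At an unadjusted p under 0.05 the count was 8 of 16, against 14.4% of all kept probes. The median difference of the 16 probes was 0.13, against -0.01 over all features with 1 probe per gene.

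Got1 (probe A_44_P388973; chromosome 1, 247344588 to 247346796 in rn4, the build the array files name) had a lowest, median and highest log2 ratio of 0.40, 0.66 and 1.02 in HP livers, of -1.07, -0.59 and 0.16 in HF livers and of -0.65, -0.12 and 0.10 in Control livers. HP livers were all above both other diets, while HF and Control livers overlapped. The difference between HP and Control was 0.93 ± 0.17 (SE, n = 6 and 7, limma adjusted p = 0.0214), a 1.91-fold higher level in HP. Between HP and HF it was 1.19 ± 0.17 (n = 6 each, limma adjusted p = 0.000284), or 2.28-fold. HF and Control differed by -0.25 ± 0.17 (limma adjusted p = 0.509), which did not pass. Within the 3 slides that held both HP and Control rats, with 2 HP rats on each, the HP to Control difference was 1.00 against Control 1 alone, 1.08 against 2 Control rats and 1.38 against Control 6 alone, the liver with high lymphocyte genes.

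Got2 (A_44_P243238; chromosome 19, 9654271 to 9654330) is the mitochondrial counterpart. Its lowest, median and highest values were -0.13, 0.00 and 0.14 in HP livers, -0.36, -0.19 and -0.11 in HF livers and -0.39, -0.18 and -0.05 in Control livers. The 3 groups overlapped. HP exceeded Control by 0.18 ± 0.06 (limma adjusted p = 0.168, not called) and HF by 0.20 ± 0.06 (limma adjusted p = 0.0486). The call against HF was kept in 5 of 12 other settings and in 5 of 19 omissions of 1 rat, and the difference was 0.06 (limma adjusted p = 0.812) when Cy5 was used alone. The settings that kept it include the scaling between arrays, which leaves log ratios as they are and so could not change a call. A further 3 probes are described in the array files as similar to the mitochondrial aspartate aminotransferase, and they differed between HP and HF by 0.21 to 0.30, of which 1 was called. Signal from Got2 and from such near copies cannot be told apart here.

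Gpt (A_44_P395315, named Gpt1 in the array files; chromosome 7, 114746646 to 114746705) had 0.10, 0.28 and 0.40 as its lowest, median and highest log2 ratio in HP livers, -1.06, -0.22 and 0.02 in HF livers and -0.74, -0.53 and -0.11 in Control livers. Every HP liver was above every HF and every Control liver. HP exceeded Control by 0.71 ± 0.14 (limma adjusted p = 0.0296), or 1.64-fold, and HF by 0.59 ± 0.14 (limma adjusted p = 0.017). HF 6, at -1.06, lay far below the other 5 HF livers, and without it the HP to HF difference was 0.44 (limma adjusted p = 0.0169). HF and Control differed by 0.13 ± 0.14 (limma adjusted p = 0.71), and by 0.28 without HF 6 (limma adjusted p = 0.166).

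Gpt2, the mitochondrial alanine aminotransferase, had 2 probes (A_43_P19536 and A_44_P430890; chromosome 19, 22893753 to 22897764 and 22890337 to 22890396). On the first, the lowest, median and highest values were 0.09, 0.14 and 0.31 in HP livers, -0.12, 0.05 and 0.27 in HF livers and -0.44, -0.14 and 0.27 in Control livers, and all groups overlapped. The HP to Control difference was 0.30 ± 0.09 and 0.28 ± 0.10 on the 2 probes (limma adjusted p = 0.15 and 0.229), so neither was called. The second probe lacked a value in 1 Control liver, so it rests on 6 Control rats.

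The cytosolic and mitochondrial forms were also compared within each rat, as the log2 ratio of the cytosolic form minus that of the mitochondrial one. These pairs, and 3 others given below, were set after the values had been seen. Their permutation p values are therefore descriptive, and the adjustment over 15 comparisons does not cover the choice of pairs. Got1 minus Got2 averaged 0.67 ± 0.22 in HP livers, -0.32 ± 0.41 in HF livers and -0.09 ± 0.31 in Control livers (SD, n = 6, 6 and 7). Gpt minus Gpt2, on the probe with a value in all livers, averaged 0.10 ± 0.10 in HP livers, -0.37 ± 0.33 in HF livers and -0.30 ± 0.21 in Control livers. HP differed from Control by 0.75 for the Got pair and 0.40 for the Gpt pair (two-sided exact permutation test over rats, p = 0.00117 and 0.00233, each 0.00437 after adjustment over the 15 comparisons of 5 pairs). HP differed from HF by 0.99 and 0.47 (exact permutation p = 0.00216 and 0.00433, adjusted 0.00437 and 0.00649). The differences between HF and Control were -0.23 and -0.07 (exact permutation p = 0.26 and 0.668).

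Glutamate dehydrogenase, Glud1, was read by 3 probes (A_43_P14157, A_44_P259908 and A_44_P472500; chromosome 16, 9999144 to 9999203, 9998014 to 9998073 and 9994290 to 9995260), none of which was called in any comparison. Their group medians were -0.04, -0.13 and -0.21 in HP livers, 0.24, 0.13 and -0.01 in HF livers and 0.14, -0.08 and -0.22 in Control livers. The differences between HP and Control were -0.11, -0.03 and -0.03, with 95% intervals from -0.35 to 0.12, from -0.22 to 0.15 and from -0.23 to 0.16. Changes of the size seen for Got1 therefore lie outside these intervals. HP and HF differed by -0.20, -0.15 and -0.11 (limma adjusted p = 0.356, 0.396 and 0.598). The lowest value of each of the 3 probes over all livers lay in HF 6 or HP 4.

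Gls2 (A_42_P501057; chromosome 7, 1495228 to 1495287), the liver glutaminase, had a lowest, median and highest log2 ratio of 0.06, 0.27 and 0.66 in HP livers, of -0.78, -0.34 and 0.02 in HF livers and of -0.92, -0.34 and 0.04 in Control livers. The HP livers stood above all others, by a narrow gap at the edge. HP exceeded Control by 0.70 ± 0.14 (limma adjusted p = 0.0325), or 1.62-fold, and HF by 0.65 ± 0.15 (limma adjusted p = 0.0092), or 1.57-fold. HF and Control differed by 0.05 ± 0.14, with a 95% interval from -0.25 to 0.34.

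Hal had 2 probes (A_44_P1038341 at 30551067 to 30551126 and A_44_P245474 at 30520884 to 30520942, both on chromosome 7). On the first, the lowest, median and highest values were 0.27, 0.50 and 0.83 in HP livers, -0.57, -0.32 and -0.16 in HF livers and -0.37, -0.09 and 0.27 in Control livers. HP livers were above all HF and all Control livers, although the lowest HP value and the highest Control value both round to 0.27. HP exceeded Control by 0.57 ± 0.11 (limma adjusted p = 0.0222), or 1.49-fold, and HF by 0.86 ± 0.11 (limma adjusted p = 8.92e-05), or 1.81-fold. HF and Control differed by -0.28 ± 0.11, which was not called (limma adjusted p = 0.172). The other Hal probe gave 0.32 ± 0.08 between HP and Control (limma adjusted p = 0.0891, not called) and 0.39 ± 0.08 between HP and HF (limma adjusted p = 0.00782). This probe was far dimmer, with a median log2 signal over both channels of 6.73, against 15.44 for the first. Over 11 other settings its 2 differences ranged from 0.18 to 0.70 and from 0.29 to 0.82, highest with the processed signals. Its size is therefore less certain than that of the first probe. When HP was set against the mean of both diets with 20% protein, the first Hal probe was the fifth by p of all 25292 kept probes.

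The later enzymes of histidine breakdown were not called between any diets. Uroc1 (A_44_P525281 and A_44_P837192; chromosome 4, 124597221 to 124597402 and 124613565 to 124613624) had HP to Control differences of 0.06 ± 0.11 and 0.08 ± 0.08, and Ftcd (A_44_P992662; chromosome 20, 12470464 to 12470523) one of 0.03 ± 0.07, none of them called (limma adjusted p = 0.841, 0.681 and 0.891). Their medians in HP livers were 0.05, 0.05 and -0.08, in HF livers 0.14, -0.04 and -0.07 and in Control livers 0.04, 0.00 and -0.16. Hal minus Uroc1 within a rat averaged 0.44 ± 0.11 in HP livers, -0.45 ± 0.14 in HF livers and -0.07 ± 0.25 in Control livers (SD). The HP and Control means differed by 0.51, and the HF and Control means by -0.37 (two-sided exact permutation p = 0.00117 and 0.0111, adjusted 0.00437 and 0.0138). Hal minus Ftcd averaged 0.65 ± 0.21 in HP livers, -0.31 ± 0.16 in HF livers and 0.10 ± 0.21 in Control livers, so HP differed from Control by 0.55 and HF from Control by -0.41 (exact permutation p = 0.00175 and 0.00291, adjusted 0.00437 and 0.00486). The 2 Uroc1 probes had r = 0.53 with each other over 19 livers (rho = 0.34), and the first was used here. It had r = 0.25 with Hal over the 19 livers, and 0.61 after the mean of each diet was removed. Between HF and Control the 2 Uroc1 probes differed by 0.09 and -0.08, and the 2 Hal probes by -0.28 and -0.07. None of these differences was called by limma. The pair measures used the first probe of Hal and of Uroc1 and were not tested on the second ones. The HF to Control pair differences therefore hold for these probes alone.

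The HP to Control calls could be lost when 1 rat was left out. Leaving out HP 2 or HP 6 left 0 of the 16 probes called by limma, although 8 of 16 had an unadjusted p under 0.05 in each case. Leaving out HP 4 left 1, and leaving out Control 1, Control 2 or HP 1 left 2. Over all kept probes the count then fell to 26, 26, 35, 39, 32 and 49, against 113 with every rat, while without Control 7 it was 460. The size of the differences moved less: from 0.86 to 1.00 for Got1, from 0.66 to 0.77 for Gpt, from 0.61 to 0.77 for Gls2 and from 0.51 to 0.63 for Hal. Without Control 6, the liver with high lymphocyte genes, all 4 stayed called, at 0.87, 0.69, 0.61 and 0.54. HP and Control rats shared 3 of the 5 array slides. With the slide as a fixed block Hal alone stayed called (0.71, limma adjusted p = 0.021), while Got1, Gpt and Gls2 had differences of 1.07, 0.62 and 0.80 (limma adjusted p = 0.0588, 0.0916 and 0.0802). Between HP and Control 1 probe was likewise called when Cy5 was used without the pool channel: Got1 stayed, and Gpt, Gls2 and Hal had adjusted p = 0.06, 0.133 and 0.0941. Gpt was also not called with normexp fitted on all spots (0.66, limma adjusted p = 0.0584) or with the processed signals (0.81, limma adjusted p = 0.0521).

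HF against Control asked the same of more fat and less carbohydrate at an equal share of protein. Both probes of Glul were called, both higher in HF livers, and no probe of another member was. Over all kept probes 3.46% were called, 1.72% as higher and 1.73% as lower in HF. At an unadjusted p under 0.05 the count was 3 of 16, against 15.7% of all kept probes.

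Glul (A_44_P381069 and A_44_P458704, for which the array files list no position) had a lowest, median and highest log2 ratio of -0.90, -0.44 and -0.09 in HP livers, of 0.08, 0.37 and 0.53 in HF livers and of -0.89, -0.38 and 0.11 in Control livers on the first probe. On the second they were -0.85, -0.36 and -0.11 in HP livers, 0.05, 0.44 and 0.57 in HF livers and -0.70, -0.38 and 0.18 in Control livers. All HF livers were above 0 and all HP livers below 0, whereas Control livers spanned both: Control 5 and Control 7 stood at 0.07 and 0.11 on the first probe, and the other 5 at -0.35 or less. HF exceeded Control by 0.70 ± 0.15 and 0.69 ± 0.15 (limma adjusted p = 0.0136 and 0.0141), or 1.62-fold and 1.61-fold, with overlap between the groups. Within the 3 slides that held HF and Control rats the first probe's difference was 0.98 (1 rat of each diet), 0.86 (2 of each) and 0.82 (3 HF rats against Control 3 alone). With the slide as a fixed block both probes gave 0.73, which was not called (limma adjusted p = 0.0686 and 0.0537). HP and Control differed by -0.12 ± 0.15 and -0.10 ± 0.15 (limma adjusted p = 0.749 and 0.801). On the first probe this difference was 0.60, -0.92 and -0.01 in the 3 slides that held HP and Control rats, so the slides, of which 2 held a single Control rat, disagreed in direction.

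**Figure D2:**
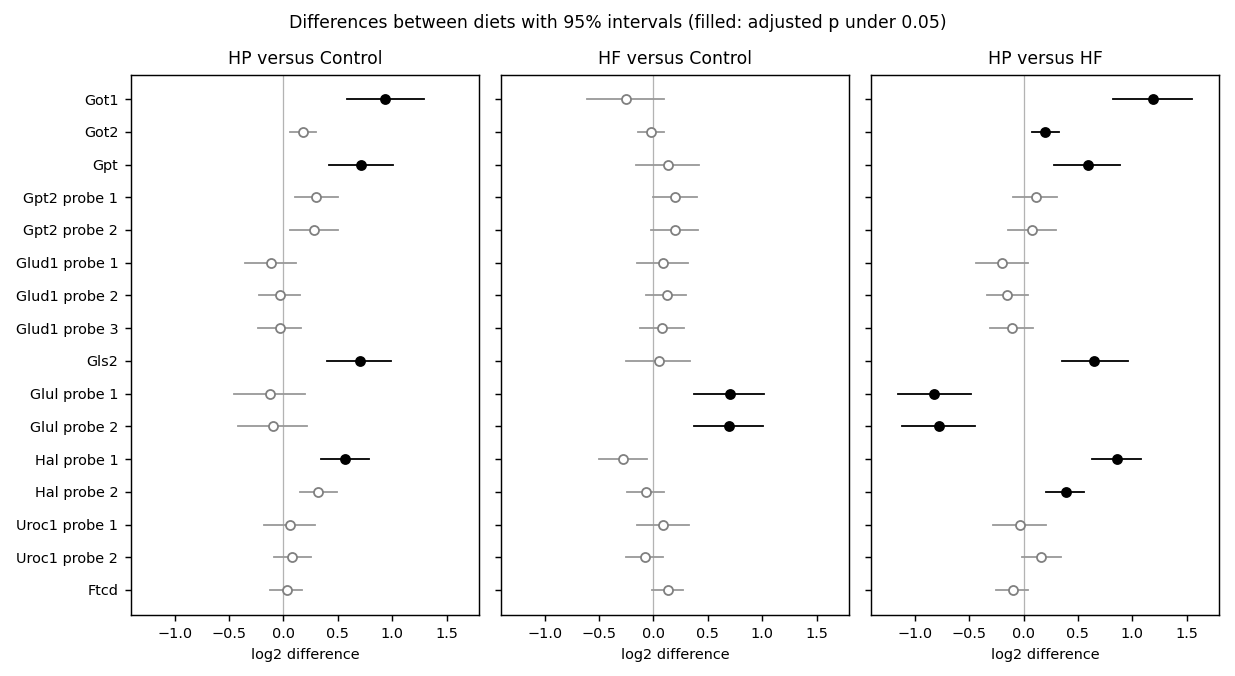
Log2 difference between diets for the 16 probes (circles) with its 95% interval (line), in 3 comparisons, each as the first diet minus the second. Filled circles have an adjusted p under 0.05: Got1, Gpt, Gls2 and Hal probe 1 between HP and Control, both Glul probes between HF and Control, and 8 probes between HP and HF.

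HP against HF set the diets apart that differ in all 3 nutrients. Of 16 probes, 8 were called: Got1, Got2, Gpt, Gls2 and both Hal probes were higher in HP livers, and both Glul probes were lower. Over all kept probes 7.08% were called, 3.81% as higher and 3.27% as lower in HP. The count at an unadjusted p under 0.05 was also 8, against 20.2% of all kept probes. Apart from Got2, the groups did not overlap for any of the 8, which held for 2.83% (all HP above) and 2.15% (all HF above) of the kept probes. The Glul differences were -0.82 ± 0.16 and -0.78 ± 0.16 (limma adjusted p = 0.00366 and 0.00472), or 0.57-fold and 0.58-fold. Gls2 minus Glul within a rat averaged 0.82 ± 0.41 in HP livers, -0.66 ± 0.48 in HF livers and 0.00 ± 0.50 in Control livers (SD). HP and HF differed by 1.47 on this measure (two-sided exact permutation p = 0.00216, adjusted 0.00437), HP and Control by 0.82 and HF and Control by -0.66 (exact permutation p = 0.00699 and 0.0379, adjusted 0.00954 and 0.0437). HP and HF rats shared 1 of 5 slides. With the slide as a fixed block 2 of 16 probes were called, Got1 (1.44, limma adjusted p = 0.0095) and Hal (1.09, limma adjusted p = 0.00172), and the Gpt difference was 0.33 (limma adjusted p = 0.471). On the 1 slide with both diets, which held 2 HP rats and HF 1 alone, Got1, Gpt, Gls2 and Hal differed by 1.06, 0.45, 0.44 and 0.96, and the Glul probes by -0.39 each.

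Set against the mean of the HF and Control diets, which share 20% protein, HP livers were higher for 6 of 16 probes, and no probe was called lower. Over all kept probes 4.11% were called in this contrast, 2.46% as higher and 1.65% as lower in HP. Got1 (1.06 ± 0.15, limma adjusted p = 0.00125), the first Hal probe (0.72 ± 0.09, limma adjusted p = 0.00113), Gls2 (0.68 ± 0.13, limma adjusted p = 0.0046) and Gpt (0.65 ± 0.12, limma adjusted p = 0.00556) stood above every liver of both other diets, which held for 0.214% of the kept probes. Got2 (0.19 ± 0.05, limma adjusted p = 0.0419) and the other Hal probe (0.35 ± 0.07, limma adjusted p = 0.00893) were called with overlap between the groups. The Got2 call was kept in 5 of 12 other settings and 9 of 19 omissions of 1 rat, and with Cy5 alone the difference was 0.07 (limma adjusted p = 0.736). Scaling between arrays, which could not change a call, is again among the settings that kept it. Gpt was not called with the slide as a fixed block (0.47, limma adjusted p = 0.142), nor Gls2 with Cy5 alone (0.48, limma adjusted p = 0.0595). The Glul probes, at -0.47 and -0.44, were not called (limma adjusted p = 0.0594 and 0.0735). By limma's F test over the 3 diets 7 of 16 probes were called, against 6.58% of all kept probes: Got1, Gpt, Gls2 and both probes of Glul and of Hal.

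Correlations between members over the 19 livers, 1 probe per gene, ranged widely. Got1 and Gls2 had r = 0.93 and Spearman's rho = 0.94, and r = 0.88 after the mean of each diet was removed, so they also moved together within diets. Got1 and Hal had r = 0.87 (rho = 0.82), but 0.49 within diets, and Got1 and Gpt had 0.73 (rho = 0.72), but 0.34 within diets. Glul ran against Got1 (r = -0.61), Gls2 (-0.46) and Hal (-0.64), and within diets these values were -0.33, -0.35 and -0.23. Got2 had r = 0.79 with Gpt and 0.77 with Gls2 (0.61 and 0.51 within diets). Gpt2 with Uroc1 had r = 0.61 (0.67 within diets), and Gpt with Hal had r = 0.63 (0.10 within diets). Probes of 1 gene had r = 0.99 for Glul, 0.94 for Gpt2, 0.90 for Hal and 0.81 to 0.97 for Glud1. These values describe 19 livers that share 1 pool and 5 slides.

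**Figure D3:**
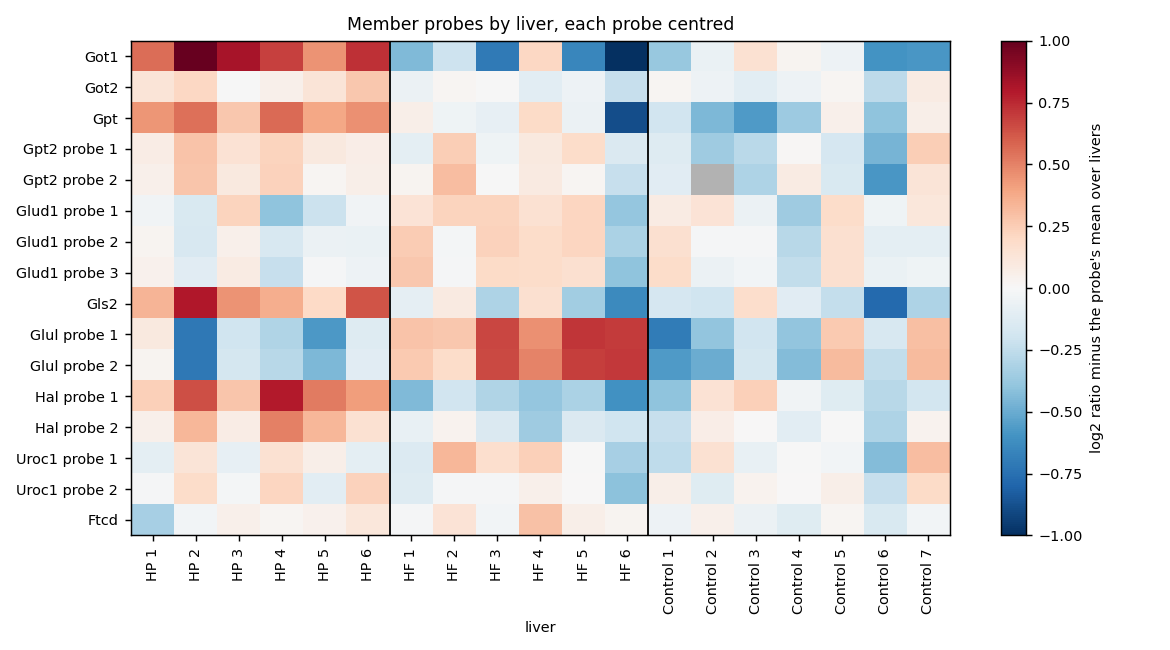
Log2 ratio of each probe minus its mean over livers (colour, red high and blue low, grey for a missing value), for livers in columns grouped as HP, HF and Control. Got1, Gpt, Gls2 and Hal are red across HP livers, both Glul rows are red across HF livers, and HF 6 and Control 6 are blue for many genes.

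The genes whose log2 ratio over 19 livers was most like each member's were named as a description. For Got1 they were Nnmt, which methylates nicotinamide (r = 0.93, rho = 0.96), Cps1, which feeds ammonia into the urea cycle (0.91, rho = 0.90), and Sds, a serine dehydratase (0.88, rho = 0.86). For Gls2 they were Cps1, Asl and the urate oxidase Uox (r = 0.90, 0.90 and 0.89). For Gpt they were Cbs, of transsulfuration, Cps1 and Gcdh, of lysine breakdown (r = 0.87, 0.85 and 0.84), and for Hal they were Gldc, of glycine cleavage, Polr3a and Gstt1 (0.89, 0.85 and 0.84). For Got2 they were Iyd, Lonp1 and Atp5f1b (r = 0.86, 0.85 and 0.83). For Glul they were the magnesium transporter Slc41a1 (r = 0.94, and 0.92 within diets), the dicarboxylate carrier Slc13a3 (0.90, and 0.70 within diets) and Nrxn3 (0.85, and 0.60 within diets). Within diets, r was 0.63 to 0.81 for the genes named for Got1, Gls2, Gpt, Hal and Got2.

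The neighbouring pathways were described by lists of other genes, each with 1 probe per gene, beside the medians of -0.01, -0.01 and 0.00 over all features between HP and Control, HF and Control, and HP and HF. Of 8 measured aminotransferases outside the members, 1 was higher in HP than in Control livers (0.308% of all kept probes were), Agxt, which removes glyoxylate with alanine (0.59 ± 0.11, limma adjusted p = 0.0242), and the list's median was 0.21. Between HP and HF, 3 of the 8 were higher (3.81% of all kept probes were): Tat, which transaminates tyrosine (1.02 ± 0.20, limma adjusted p = 0.00289), Agxt (0.53 ± 0.11) and the kynurenine aminotransferase Kyat1 (0.37 ± 0.09). Of 15 other glutamate and glutamine enzymes, limma called 0 in each of HP against Control, HF against Control and HP against HF. At an unadjusted p under 0.05 there were 4, 2 and 2, against 14.4%, 15.7% and 20.2% of all kept probes. The list's medians were 0.01, -0.05 and 0.04. Of 9 other histidine and folate enzymes, the folate enzyme Mthfd1 was higher in HP than in HF livers (0.48 ± 0.14, limma adjusted p = 0.0365), and 0 were called in HP or HF against Control by limma (1 and 2 at an unadjusted p under 0.05).

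Among 14 carriers of glutamate, glutamine, aspartate and ammonia, 2 were higher in HF than in Control livers (1.72% of all kept probes were), the glutamate carrier Slc1a2 (1.41 ± 0.24, limma adjusted p = 0.002) and the ammonia carrier Rhbg (1.04 ± 0.22, limma adjusted p = 0.0104). Both were lower in HP than in HF livers, by log2 differences of -1.02 ± 0.25 and -0.97 ± 0.23. In the liver both are known, like Glul, from pericentral hepatocytes. Of 16 pericentral genes, 8 were higher in HF than in Control livers (1.72% of all kept probes were), led by Cyp2e1, a cytochrome P450 (1.65 ± 0.20, limma adjusted p = 0.000165), Lect2, a secreted hepatocyte protein (0.48 ± 0.08), and Slc13a3 (1.13 ± 0.19). The list's median was 0.69, and 0.59 without Control 6. Between HP and HF, 6 of the 16 were lower in HP (3.27% of all kept probes were), with a median of -0.46. Between HP and Control limma called 0 of the 16, with 5 at an unadjusted p under 0.05 (14.4% of all kept probes were). Of the 16 differences 13 lay above 0, with a median of 0.17. The median over the list was -0.28 to 0.00 in HP livers, against -0.67 to -0.03 in Control livers, whereas the Glul probes differed by -0.12 and -0.10 between these diets.

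Of 8 urea cycle genes, 2 were higher in HP than in Control livers (0.308% of all kept probes were), Asl, which splits argininosuccinate (0.97 ± 0.13, limma adjusted p = 0.00392), and Cps1 (0.62 ± 0.13, limma adjusted p = 0.0325). All 8 differences were above 0, with a median of 0.32. Between HF and Control 0 of the 8 were called by limma, and 0 had an unadjusted p under 0.05 (15.7% of all kept probes did). Of 19 periportal genes, which include some of the urea cycle and Tat, 3 were higher in HP than in Control livers (Asl, Cps1 and Sds) and 3 were lower in HF than in Control livers (1.73% of all kept probes were): Gldc (-0.60 ± 0.11), Cyp2f4, a cytochrome P450 (-0.42 ± 0.09), and Hsd17b13, a lipid droplet protein (-0.45 ± 0.12). Of the 19 differences between HP and Control, 12 lay above 0, with a median of 0.18, and 0.11 without Control 6. Of those between HF and Control, 8 lay above 0, with a median of -0.17. Between HP and HF, 8 genes were higher and 1 lower in HP (3.81% and 3.27% of all kept probes were), with a median of 0.31. These lists share genes, so they are not separate results.

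**Figure D4:**
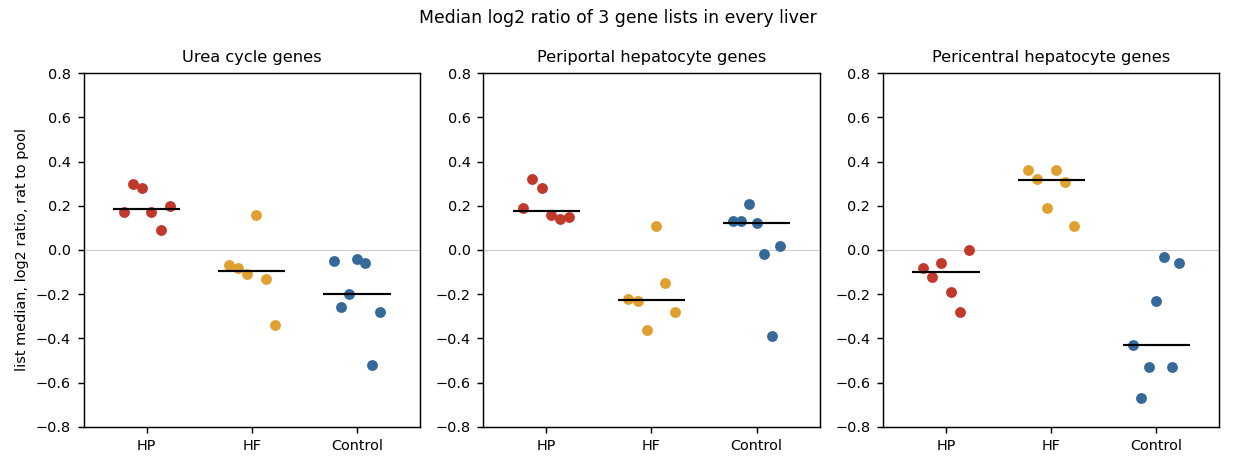
Median log2 ratio over the measured genes of the urea cycle (8), periportal (19) and pericentral (16) lists in every liver (points), with the median of each diet (line). The urea cycle medians are 0.09 to 0.30 in HP livers, -0.34 to 0.16 in HF livers and -0.52 to -0.04 in Control livers. The periportal medians are 0.14 to 0.32 in HP livers, -0.36 to 0.11 in HF livers and -0.39 to 0.21 in Control livers. The pericentral medians are 0.11 to 0.36 in HF livers, all above the HP and Control livers.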

How the data were processed

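Per the labels' protocols, 1000 ng of liver RNA of each rat was labelled and hybridised in Cy5 against the equimolar Cy3 pool. The authors deposited scanner files whose intensity values were read with Agilent Feature Extraction 10.5.1.1, per the file headers and the submitters' processing notes, and a table of 22764 features on the log2 scale, brought by the authors to a common median of 8.205 per array by steps not given in the sources used here. Within an array its values followed the Cy5 signal (r = 0.995 to 0.999 across features), and, with features centred, the array's own log ratio of Cy5 over Cy3 (r = 0.911 to 0.976), in the same direction on every array. It served as an alternative.

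From the mean signals, local background medians were corrected by normexp (offset 50), and a loess curve per array, fitted without control spots, was taken off the log2 ratios. Left out were outlier spots and 40 spots (5 arrays) with a local background more than 50 above the signal. Spots of 1 probe were averaged. A probe entered the test when 6 or more of 19 arrays had its Cy5 signal well above background (25292 probes). In 1 scanner file 2 records without a line break between them were split. R 4.3.3 and limma 3.58.1 fitted 1 model over the 3 diets with moderated two-sided tests (16 residual and 3.32 prior degrees of freedom), adjusted by Benjamini-Hochberg over all kept probes. The number of arrays limits the precision.

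Probes were named by accession (10928), symbol (5188), synonym (3481) or only the file's own name (132); 21283 stayed unnamed. Replicates are separate rats, and like-numbered rats of different diets correlated with a mean of -0.00885 after group means were removed (18 pairs, against 0.00105 for 102 other pairs), so no pairing was used. Every probe of the members is named. Genes outside the members are named where they passed, up to 3 per list and comparison by p, or by likeness to a member. The members, lists and tests were chosen with earlier results of these data known. The alternatives were other background steps, the processed signals, Cy5 alone, scaling between arrays, the deposited log2 values, other filters, 1 probe per gene, slide and replicate blocks, array weights and leaving out each rat. The scaling between arrays acted only on the mean signal of both channels, so the log ratios and all calls stayed the same. Results of gene set tests were not used, and promoter letters were read from RefSeq windows.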

Additional observations from a re-analysis of the deposited data

Results flagged for a closer look

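Dixon's test was run on 48 groups of values (16 probes in 3 diets). In these, 3 values lay farther from the rest of their group than it allows at the 95% level. Chance alone gives about 1 in 20 such groups. HF 6 had a Gpt log2 ratio of -1.06, against -0.25 to 0.02 in the other HF livers. HF 6 also had a Glud1 log2 ratio of -0.33 on probe A_43_P14157, against 0.19 to 0.28 in the other HF livers. HP 1 had an Ftcd log2 ratio of -0.44, against -0.14 to 0.00 in the other HP livers.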

How the results depend on the processing

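No call of a member probe changed direction under any of the 12 settings or the 19 omissions of 1 rat. Of these settings, the scaling between arrays left the log ratios as they were and could not change a call. Between HP and Control 4 of 16 probes were called, against 1 with Cy5 alone, 1 with the slide as a fixed block and 0 to 5 when 1 rat was left out (0 without HP 2 and without HP 6). Between HF and Control it was 2, against 0 with the slide as a fixed block (3 at an unadjusted p under 0.05), 1 with 1 probe per gene, where Glul has 1 of its probes, and 2 in each omission. Between HP and HF it was 8, against 2 with the slide as a fixed block and 7 to 8 in the omissions. For HP against both diets with 20% protein it was 6, against 4 with the slide as a fixed block, 8 with array weights and 5 to 7 in the omissions. By the F test it was 7, against 4 with the slide as a fixed block and 7 to 9 in the omissions. The cause was not tested. Over all kept probes, the HP to Control count of 113 was 24 with the slide as a fixed block, 53 with Cy5 alone, 61 with normexp fitted on all spots, 63 with the processed signals, 289 with array weights and 26 to 460 in the omissions. With a replicate block, although the numbers pair nothing, the member counts were 5, 2, 7, 6 and 8 in the order given above. The HP to Control count over all probes was then 238. Only Control has a replicate 7, so this block also takes Control 7 out of the differences.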
